A study of Oryzias melastigma with 6 samples.

Results

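The let-7 microRNAs of the marine medaka (Oryzias melastigma), a small saltwater fish, were followed through every sequence that resembled a mature let-7 form. A sequence was counted as a member when it matched a conserved vertebrate let-7 5p or 3p form with a 5' end shifted by at most 3 nt, at most 2 mismatches and an overlap of at least 17 nt. The rule found 121 of 1571 sequences, 116 from the 5p arm (the left side of the hairpin) and 5 from the 3p arm. Small RNA of mature, breeding fish had been sequenced from 6 libraries, 1 each of ovary, testis, female brain, male brain, female liver and male liver, to profile microRNAs by organ and sex. Each library came from pooled tissue, and the labels name no treatment or mutation. How many fish entered a pool, and their strain and age, the labels do not say. Every organ therefore rests on 1 library per sex, and no library has a replicate of its own sex and organ.

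The let-7 family, first known from the nematode Caenorhabditis elegans as a regulator of developmental timing, is one of the most conserved microRNA families of animals. In vertebrates it is made from several genes whose mature 5p forms share their seed, the bases near the 5' end with which a microRNA pairs to its target mRNAs, and differ further along. LIN28 proteins are known to block the maturation of let-7 precursors in stem cells and germ cells, and mature let-7 is typically abundant in differentiated tissue, the brain among them. The 5p strand is usually the one kept, and the 3p strand is mostly degraded.

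The most abundant sequence nearest to each known paralogue, each of 22 nt, is shown here, since the later comparisons turn on these 9 forms. They were read from the deposited data, are written as DNA, and have bases 2 to 8 (the seed) in capitals.
let-7a: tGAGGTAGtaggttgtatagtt
let-7b: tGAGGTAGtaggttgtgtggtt
let-7c: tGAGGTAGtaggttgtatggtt
let-7d: tGAGGTAGttggttgtatggtt
let-7e: tGAGGTAGtagattgaatagtt
let-7g: tGAGGTAGtagtttgtatagtt
let-7h: tGAGGTAGtaagttgtgttgtt
let-7i: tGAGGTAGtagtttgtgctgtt
let-7j: tGAGGTAGttgtttgtacagtt
All 9 had the same seed. They were identical at 15 of 22 positions and differed at positions 10, 11, 12, 16, 17, 18 and 19, counted from 1 at the 5' end. Some forms differ by a single base: let-7c is let-7a with A19G, and let-7g is let-7a with G12T. Letters follow the closest paralogue known from zebrafish and are not a gene assignment, because no genome of this species was used. No sequence was closest to let-7f, and 1 sequence at 7.36 RPM in male brain was tied between let-7a and let-7c.

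A further 3 forms carry findings described below. In let-7b a start 1 base early moves the seed. In let-7j a form with G15T reached several percent of the paralogue. Capitals again mark bases 2 to 8 of each read. The 3p arm was represented mainly by let-7i-3p.
let-7b, start 1 base early: gTGAGGTAgtaggttgtgtggt
let-7j with G15T: tGAGGTAGttgtttttacagtt
let-7i-3p: cTGCGCAAgctactgccttgct

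Values were deposited per sequence of 20 to 23 nt, in RPM, reads scaled to a fixed library total, a unit taken from the values themselves. Their spacing implied 18.7 to 25.5 M reads (M, mega) per library. A file listed nothing below its own minimum of 6.002 to 10.03 RPM, so an unlisted sequence may still have been present below it. Listed sequences summed to 24.0% and 21.7% of reads in female and male brain, and to between 2.08% and 2.95% in the other 4 libraries, so that RPM and shares of the listed total can order organs differently. Markers recognised by their seed followed the labels: the neuronal miR-124-3p and miR-9-5p were listed in the brain libraries alone, the hepatic miR-122-5p in the liver libraries alone, and the gonadal miR-202-5p in ovary and testis alone. The red cell marker miR-451-5p summed to 100.1 RPM in ovary, 13.9 RPM in testis, 1097 RPM in female brain, 545 RPM in male brain, 139 RPM in female liver and 172 RPM in male liver. The other red cell marker, miR-144-3p, was unlisted in ovary and summed to 19.1 RPM in testis, 208 RPM in female brain, 129 RPM in male brain, 66.8 RPM in female liver and 60.2 RPM in male liver. The part of red cells in the let-7 differences was not tested. Female brain also held 7 let-7 sequences with an uncalled base, 170 RPM in all, and 47 of the 49 sequences of that library with an uncalled base had it at base 16 of the read.

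let-7-5p was most abundant in brain on the RPM scale, less abundant in the gonads and least abundant in liver. The 5p sequences summed to 6870.4 RPM in ovary, 4385 RPM in testis, 37499.8 RPM in female brain, 30529 RPM in male brain, 1856 RPM in female liver and 1571 RPM in male liver. The mean was 34015 ± 4929 RPM in brain and 1713 ± 202 RPM in liver (SD, n = 2 each). Male brain, the lower of the brain pair, stood 4.44-fold above ovary, and testis stood 2.36-fold above female liver, both wider steps than the 1.23-fold and 1.18-fold gaps between the sexes in brain and liver. Ovary and testis differed by 1.57-fold, and with 1 library each, organ, sex and library cannot be told apart there.

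As a share of everything listed, the order changed, with the gonads first. let-7-5p made up 23.3% of the listed RPM in ovary, 21.1% in testis, 15.6% (female) and 14.1% (male) in brain, and 7.38% (female) and 6.30% (male) in liver. Liver was lowest on both scales. On the third scale tried, which divides by the median ratio of the sequences listed in every library (median-of-ratios), brain was again above the gonads, with 8696 in ovary, 7545 in testis, 12568 (female) and 13682 (male) in brain, and 3508 (female) and 2492 (male) in liver. Of the 130 sequences listed in every library 21 were let-7, so the median-of-ratios scale is not independent of let-7. In bulk tissue, fewer cells that hold let-7 and less let-7 per cell cannot be told apart.

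The 22-nt let-7a form was the most abundant of all listed sequences in ovary and in testis. It ranked 3 in both brain libraries and 8 in both liver libraries. Its level was 2944 RPM in ovary, 1865 RPM in testis, 9036 RPM in female brain, 7054 RPM in male brain, 366 RPM in female liver and 380.4 RPM in male liver. The number of 5p sequences that reached a listing was 33 in ovary, 29 in testis, 112 (female) and 103 (male) in brain, and 29 (female) and 25 (male) in liver, which follows the level as well as the diversity of forms.

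let-7a was the most abundant paralogue in each library. let-7b followed it in brain, whereas in ovary, testis and both livers let-7g did, in the livers by a narrow margin. let-7a summed to 3563 RPM in ovary, 2351 RPM in testis, 13789 RPM in female brain, 10339 RPM in male brain, 523 RPM in female liver and 603 RPM in male liver. let-7b summed to 727 RPM in ovary, 397 RPM in testis, 7549.6 RPM in female brain, 6203.5 RPM in male brain, 371 RPM in female liver and 262 RPM in male liver. In RPM the brain libraries were above the others for both. Of all sequences tested below, 40.6% were higher in brain than in liver, and 37.4% and 38.4% were lower in ovary and testis than in brain. Scaled to the listed total, the 22-nt let-7a form was higher in ovary and testis than in brain, by 1.51 and 1.35 log2 units.

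let-7g differed from these in falling less from brain to the gonads and to liver. It summed to 1583 RPM in ovary, 715 RPM in testis, 3335 RPM in female brain, 2403 RPM in male brain, 380.5 RPM in female liver and 279.9 RPM in male liver. let-7e was the one paralogue with more RPM in testis than in ovary, with 246 RPM in ovary, 456 RPM in testis, 1173 RPM in female brain, 801 RPM in male brain, 39.3 RPM in female liver and 56.9 RPM in male liver; after scaling to the listed total or by median-of-ratios, let-7c and let-7d were also higher in testis.

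let-7d and let-7i had the widest range between organs among the paralogues listed in all libraries. let-7d summed to 239 RPM in ovary, 226 RPM in testis, 3799.6 RPM in female brain, 2951 RPM in male brain, 23.02 RPM in female liver and 19.6 RPM in male liver. let-7i summed to 152 RPM in ovary, 53.8 RPM in testis, 4932 RPM in female brain, 5459.9 RPM in male brain, 188 RPM in female liver and 81.2 RPM in male liver. For let-7d ovary and testis lay far above both livers, whereas for let-7i ovary lay between the livers and testis below both.

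The remaining 3 paralogues were each below 4% of let-7-5p in the gonads and brain. let-7c, 1 base away from let-7a, summed to 44.9 RPM in ovary, 38.9 RPM in testis, 721 RPM in female brain and 565 RPM in male brain, and was unlisted in both livers. let-7h summed to 157 RPM in ovary, 85.7 RPM in testis, 956 RPM in female brain, 703 RPM in male brain, 127.4 RPM in female liver and 126.8 RPM in male liver. let-7j summed to 158 RPM in ovary, 59.8 RPM in testis, 1245 RPM in female brain, 1097 RPM in male brain, 205 RPM in female liver and 140.2 RPM in male liver. For let-7h and let-7j testis lay below both livers, and ovary lay above them for let-7h and between them for let-7j.

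**Figure D1:**
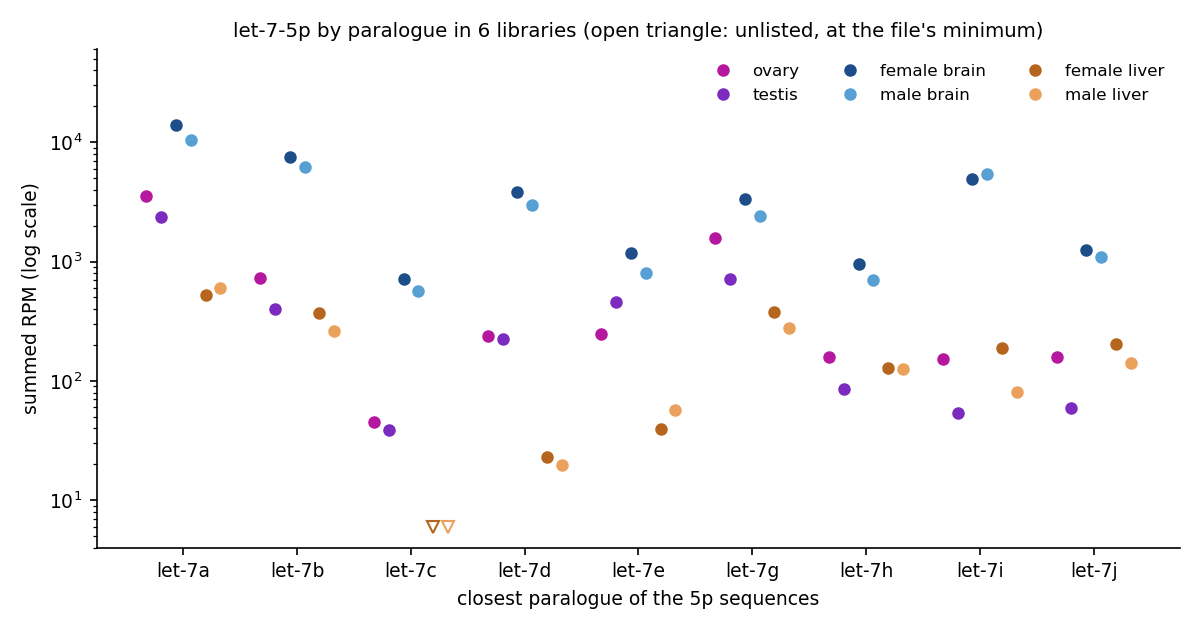
Summed RPM of the 5p sequences nearest to each let-7 paralogue (log axis) in the 6 libraries, 1 point per library, with open triangles at the listing minimum for a paralogue that was unlisted. Brain points lie highest for every paralogue, and let-7d spans from 19.6 RPM in male liver to 3799.6 RPM in female brain.

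The make-up of let-7-5p differed between organs, and these shares do not depend on how libraries are scaled. let-7a held 51.9% of let-7-5p in ovary and 53.6% in testis, against 36.8% (female) and 33.9% (male) in brain, and 28.2% (female) and 38.4% (male) in liver. The gonads lay 13.4 to 16.9 percentage points above the nearest brain or liver library, more than the widest gap between the sexes in brain or liver (10.2 points). With 2 libraries against 2, an exact permutation test cannot give a p below 0.333, so these shares are compared with the gap between the sexes and carry no p.

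let-7b went the other way, with 10.6% in ovary, 9.07% in testis, 20.1% (female) and 20.3% (male) in brain, and 19.98% (female) and 16.7% (male) in liver. let-7g held 23.04% in ovary, 16.3% in testis, 8.89% (female) and 7.87% (male) in brain, and 20.5% (female) and 17.8% (male) in liver, so that it was lowest in brain. let-7i took 2.21% in ovary, 1.23% in testis, 13.2% (female) and 17.9% (male) in brain, and 10.1% (female) and 5.17% (male) in liver. For let-7i the gonads lay further below brain than the sexes lay apart (4.93 points), whereas brain and liver did not separate by more than that gap.

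let-7d held 3.48% in ovary, 5.16% in testis, 10.1% (female) and 9.67% (male) in brain, and 1.24% (female) and 1.25% (male) in liver. Brain, ovary, testis and liver were each further apart than the sexes in brain or liver (0.466 points), with ovary minus testis at -1.68 points. let-7e held 3.58% in ovary, 10.4% in testis, 3.13% (female) and 2.62% (male) in brain, and 2.12% (female) and 3.62% (male) in liver, which put testis alone above the rest. let-7h and let-7j were raised in liver: let-7h held 2.29% in ovary, 1.96% in testis, 2.55% (female) and 2.30% (male) in brain, and 6.86% (female) and 8.08% (male) in liver. let-7j held 2.31% in ovary, 1.36% in testis, 3.32% (female) and 3.59% (male) in brain, and 11.03% (female) and 8.93% (male) in liver.

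**Figure D2:**
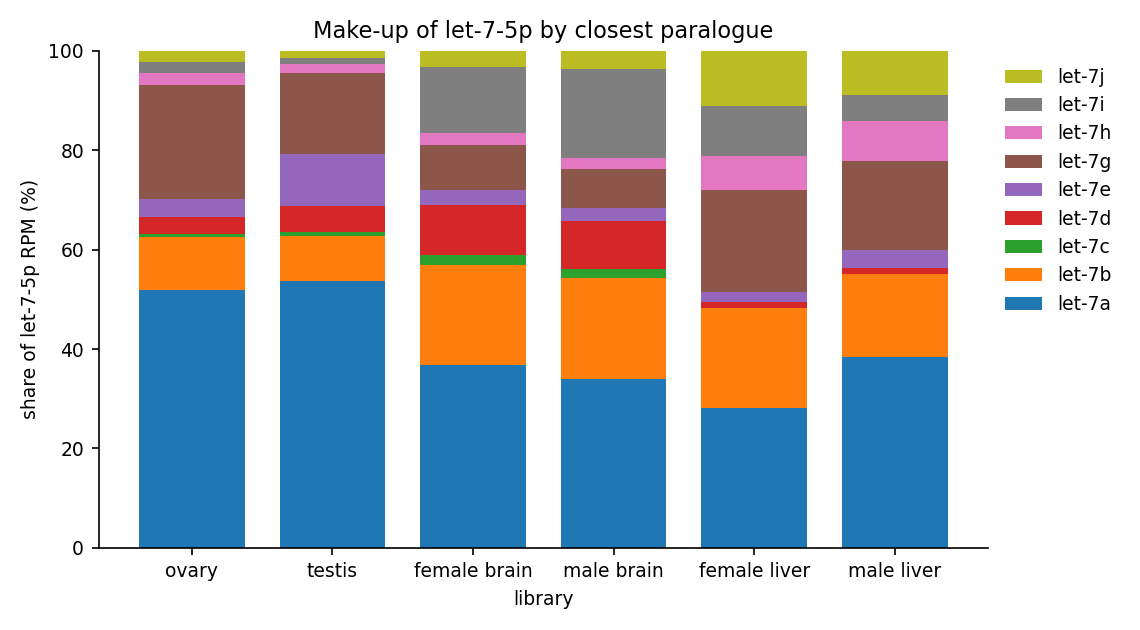
Share of let-7-5p RPM (%) nearest to each paralogue, 1 stacked bar per library. let-7a fills 51.9% and 53.6% of the ovary and testis bars, let-7i is widest in the 2 brain bars, and let-7h and let-7j are widest in the 2 liver bars.

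Differences between organs were tested on single sequences with limma, on log2(RPM + 1) with values below the highest listing minimum (10.03 RPM) raised to it, in 1 fit over the 6 libraries with organ as the term and Benjamini-Hochberg adjustment at 0.05 over all 1311 sequences that passed this minimum. Of the 121 let-7 members, 102 lay above the minimum in at least 1 library and were tested, and 19 lay under it throughout. Of the 102, 66 passed through brain libraries alone and could differ from brain in 1 direction only. The counts and medians in comparisons with brain are therefore partly set by this filter. How many of the 1311 passed through brain alone was not counted, nor how many of the sequences tested on the other scales. Comparisons with brain on those scales can be partly set by the filter in the same way. The spread in this fit is that between female and male libraries within brain and within liver (2 residual degrees of freedom). Ovary and testis are assumed to vary in the same way. A sequence raised to the minimum in the female and the male library alike shows no spread and is called easily. The 6 comparisons share libraries.

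Brain exceeded liver for 55 let-7 sequences and fell below it for 0 of 102, while over all sequences 40.6% were higher in brain and 2.29% lower. The median log2 difference was 1.35 over let-7 and 0.64 over all tested sequences, both partly set by sequences that passed through brain alone. All 9 of the 22-nt forms were higher in brain, the largest being let-7d at 6.79 ± 0.17 (SE, adjusted p = 0.00154). let-7c was unlisted in both livers, so its calls here and on the other scales are against the minimum. let-7i differed by 5.32 ± 0.48 (adjusted p = 0.0122), let-7a by 4.42 ± 0.16 (adjusted p = 0.00262), let-7b by 3.87 ± 0.30 (adjusted p = 0.00941) and let-7e by 4.12 ± 0.33 (adjusted p = 0.00978). let-7g, let-7h and let-7j differed least, by 3.003 ± 0.28 (adjusted p = 0.0136), 2.58 ± 0.19 (adjusted p = 0.00848) and 2.77 ± 0.27 (adjusted p = 0.0139), and these 3 turned negative when values were scaled to the listed total. On that scale 3 of the 9 forms passed (let-7a, let-7c and let-7d) and with median-of-ratios 4 did (with let-7e), let-7d differing by 3.64 (adjusted p = 0.00492) and 4.66 (adjusted p = 0.00587). let-7i and let-7b did not pass on either, at adjusted p = 0.112 and 0.287 scaled to the listed total and 0.0722 and 0.104 with median-of-ratios. After let-7d, the largest differences belonged to let-7b starting 1 base early, at 5.83 ± 0.35 for 22 nt (adjusted p = 0.00582) and 5.72 ± 0.17 for 21 nt (adjusted p = 0.00192), the 21-nt form of female liver, at 8.41 RPM, having been raised to the minimum. Fewer were called when 1 liver library was left out and more when 1 brain library was, over let-7 and over all sequences. Such fits keep 1 residual degree of freedom, so that no count is given. With 1 library left out at a time, the 22-nt let-7d difference ranged from 6.63 to 6.95. With median-of-ratios scaling, which raised the minimum and left 49 let-7 sequences to test, 27 of 49 were higher (55.1%, against 53.9% of the 102). Over all sequences 27.3% were higher. Scaled to the listed total 11 of 37 were higher (29.7%), beside 17.3%. How many sequences passed through brain alone on these scales was not counted, so these shares can be partly set by the filter too.

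Ovary was below brain for 51 let-7 sequences and above it for 0 of 102 on the RPM scale, where over all sequences 37.4% were lower and 9.46% higher. The median log2 difference was -1.30 over let-7 and -0.61 over all tested sequences. The let-7i forms led, with -5.69 ± 0.41 for 23 nt with a 3' T (adjusted p = 0.00741) and -4.75 ± 0.58 for 22 nt (adjusted p = 0.0206). The 23-nt form stood at 11.2 RPM in ovary, close to the minimum. A 20-nt let-7i form was also called, but it was raised to the minimum in ovary and in both livers. It could differ from brain in 1 direction only, so that no fold or p is given. let-7d followed at -3.72 ± 0.21 (adjusted p = 0.00479). let-7a differed by -1.44 ± 0.20 (adjusted p = 0.0262), but was higher in ovary by 0.27 under median-of-ratios and by 1.51 when scaled to the listed total (adjusted p = 0.230 and 0.0128). let-7e at -1.78 ± 0.40 (adjusted p = 0.0647) and let-7g at -0.54 ± 0.35 (adjusted p = 0.363) did not pass, and let-7g was higher in ovary by 2.41 (adjusted p = 0.0287) when scaled to the listed total. Again fewer were called when 1 liver library was left out and more when 1 brain library was, over let-7 and over all sequences. With 1 library left out at a time, the 22-nt let-7i difference ranged from -4.86 to -4.64. Scaled to the listed total, with 37 let-7 sequences tested, 4 were lower (10.8%) and 5 higher (13.5%), beside 14.8% and 22.4% of all sequences. With median-of-ratios 24 of 49 were lower (49.0%) and 2 higher (4.08%), beside 24.7% and 15.96% of all sequences.

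Testis was below brain for 52 let-7 sequences and above it for 0 of 102, where over all sequences 38.4% were lower and 8.62% higher, and scaling to the listed total gave 5 lower (13.5%) and 6 higher (16.2%) of 37, beside 14.3% and 28.9% of all sequences. The median log2 difference was -1.30 over let-7 and -0.64 over all tested sequences. The 22-nt let-7i form had the largest difference, -6.41 ± 0.58 (adjusted p = 0.0116), followed by its 23-nt form with a 3' T at -5.82 ± 0.41 (adjusted p = 0.00737) and the 21-nt early-starting let-7b form at -5.13 ± 0.21 (adjusted p = 0.00275). These 2 let-7i and let-7b forms stood at 10.2 RPM and 16.1 RPM in testis. let-7e at -0.83 ± 0.40 (adjusted p = 0.243) and let-7g at -1.73 ± 0.35 (adjusted p = 0.0515) did not pass. let-7e turned and passed under both other scalings, at 1.32 (adjusted p = 0.0221) with median-of-ratios and 2.62 (adjusted p = 0.0314) scaled to the listed total, where let-7g reached 1.72 (adjusted p = 0.0472). Here too fewer were called when 1 liver library was left out and more when 1 brain library was, over let-7 and over all sequences. With 1 library left out at a time, the 22-nt let-7i difference ranged from -6.52 to -6.30.

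Ovary exceeded liver for 5 let-7 sequences and was below it for 0 of 102, with 10.4% of all sequences higher and 1.45% lower. Testis exceeded liver for 4 and was below it for 0 of 102, with 9% of all sequences higher and 1.75% lower. The median log2 difference was 0 over let-7 and over all tested sequences in both comparisons, because most sequences lay at the minimum in all libraries compared. The members called were chiefly let-7d, at 3.07 ± 0.21 in ovary (adjusted p = 0.0185) and 2.93 ± 0.21 in testis (adjusted p = 0.0231), and let-7a, at 2.98 ± 0.20 in ovary (adjusted p = 0.0173) and 2.32 ± 0.20 in testis (adjusted p = 0.0324). A 21-nt let-7a form starting 1 base late was also called in ovary (adjusted p = 0.0258) and testis (adjusted p = 0.0461). It stood at 112 RPM in ovary and 69.0 RPM in testis, and was unlisted in female liver and at 10.8 RPM in male liver, so that no fold is given. let-7c, unlisted in both livers, was likewise called against the minimum, and the 23-nt early-starting let-7b form was called in ovary. With sex as a term in the fit, 1 let-7 sequence was higher in ovary than in liver, beside 42 of all 1311 sequences. For testis it was 0 let-7 sequences, beside 0 of all 1311. The direction of let-7a and let-7d held under both other scalings. The let-7 calls were lost when 1 liver library was left out, and more were made when 1 brain library was. Over all sequences the number higher also fell and rose in this way. With 1 library left out at a time, let-7d ranged from 2.96 to 3.18 in ovary and from 2.82 to 3.04 in testis. let-7a ranged from 2.95 to 3.01 in ovary and from 2.29 to 2.35 in testis.

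Ovary exceeded testis for 1 let-7 sequence and was below it for 0 of 102, with 8.54% of all sequences higher and 6.1% lower. This was the 23-nt let-7b form starting 1 base early, with 50.4 RPM in ovary and 20.6 RPM in testis, a log2 difference of 1.25 ± 0.09 (adjusted p = 0.0157). The medians were 0. This call was lost when 1 liver library was left out, and more were made in both directions when 1 brain library was. Over all sequences the numbers called also fell and rose in this way. The difference of 1.25 rests on the ovary and testis libraries alone and did not change. With median-of-ratios the count was 1 higher and 5 lower of 49, beside 10.4% and 15.6% of all sequences, and scaled to the listed total 2 higher and 2 lower of 37, beside 14.3% and 22.3%. The 22-nt let-7e form differed by -0.95 ± 0.46 (adjusted p = 0.635), by -1.40 with median-of-ratios, where it passed (adjusted p = 0.0405), and by -1.46 scaled to the listed total (adjusted p = 0.149).

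**Figure D3:**
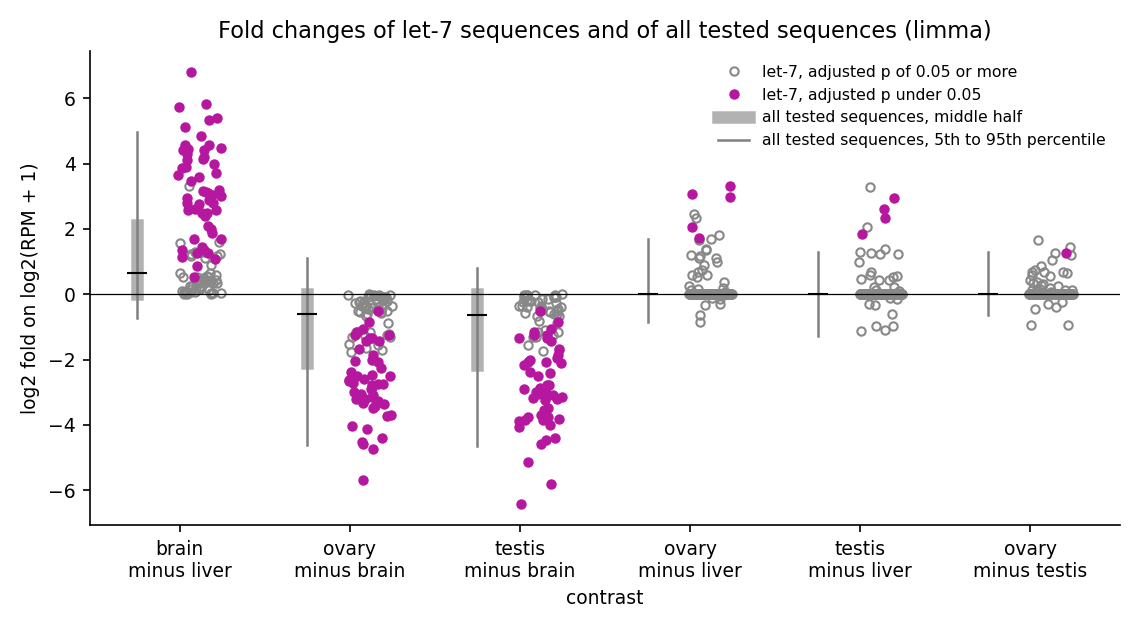
log2 differences from limma for the 102 tested let-7 sequences (points, filled where the adjusted p is under 0.05) in 6 comparisons, with grey bars for the middle 50% and lines for the 5th to 95th percentile of all 1311 tested sequences. let-7 points lie above 0 in brain minus liver and below 0 in the gonads minus brain, where 55, 51 and 52 pass. Of the 102 sequences, 66 were above the minimum in brain libraries alone, so the side of 0 of their points was set by the filter. Over all tested sequences, 40.6% were higher in brain than in liver. Lower than in brain were 37.4% in ovary and 38.4% in testis.

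The gonads held a larger share of full-length let-7 than brain or liver. Sequences of 22 nt made up 84.0% of let-7-5p in ovary and 80.9% in testis, against 69.0% (female) and 71.1% (male) in brain, and 73.5% (female) and 71.2% (male) in liver. The nearest gap between a gonad and another library was 7.36 points, against 2.32 points between the sexes. Over all listed sequences of any kind the 22-nt share was 49.1% in ovary, 44.4% in testis, 53.0% (female) and 52.4% (male) in brain, and 30.7% (female) and 31.9% (male) in liver, which has another order. Sequences of 21 nt held 10.9% of let-7-5p in ovary, 14.6% in testis, 19.5% (female) and 17.5% (male) in brain, and 17.3% (female) and 19.8% (male) in liver.

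Within paralogues the lengths can be compared where both forms were listed in every library, which held for let-7a, let-7b, let-7e, let-7g and let-7h. Per 100 RPM of its 22-nt form, let-7a had 12.5 RPM of 21 nt in ovary, 17.96 in testis, 35.1 (female) and 31.7 (male) in brain, and 35.8 (female) and 41.4 (male) in liver. let-7g had 3.30 in ovary, 9.04 in testis, 23.3 (female) and 21.7 (male) in brain, and 19.8 (female) and 20.99 (male) in liver. For both, every gonad value lay below every brain and liver value.

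let-7e and let-7h had the same order, with narrower gaps. Their counting intervals overlapped between ovary and female liver for let-7e, and between testis and male liver for let-7h. let-7e had 17.5 RPM of 21 nt per 100 RPM of 22 nt in ovary and 11.8 in testis, and between 21.8 and 29.8 elsewhere. let-7h had 20.9 in ovary and 31.4 in testis, and between 37.0 and 39.4 elsewhere. let-7b did not follow the pattern, with 17.6 in ovary, 24.5 in testis, 29.3 (female) and 24.5 (male) in brain, and 17.7 (female) and 18.3 (male) in liver. In brain, where let-7i was abundant, its 21-nt form was low by the same measure, with 7.0 in female brain and 5.35 in male brain.

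**Figure D4:**
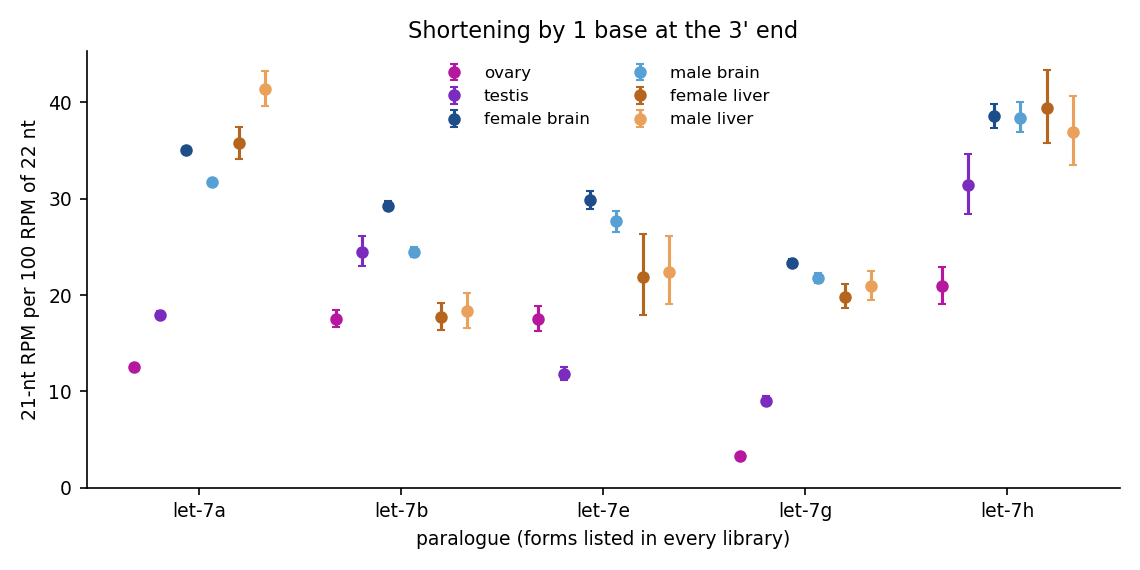
RPM of the 21-nt form per 100 RPM of the 22-nt form for the 5 paralogues with both forms listed in every library, with bars for 95% intervals that cover counting error only. For let-7a and let-7g the ovary (12.5 and 3.30) and testis (17.96 and 9.04) points lie below all brain and liver points, as they do for let-7e and let-7h.

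Most let-7-5p reads began at the usual base, between 91.2% of RPM in female brain and 97.96% in female liver. In let-7b a large minority began 1 base early, with an added G that moves bases 2 to 8 to TGAGGTA. Whether this G, or any other base in front, is encoded in the genome was not tested. Over the 6 forms of let-7b that were listed in every library (both starts, ending at position 20, 21 or 22), the early start made up 21.4% in ovary, 24.1% in testis, 36.0% (female) and 33.6% (male) in brain, and 11.6% (female) and 20.4% (male) in liver. Both brain libraries lay above the other 4, and female liver stood below male liver by more than the sexes differed in brain. The most abundant early form, of 22 nt, had 66.8 RPM in ovary, 49.6 RPM in testis, 1287 RPM in female brain, 947 RPM in male brain, 14.6 RPM in female liver and 23.3 RPM in male liver.

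The early start of let-7b went with an early end. Among forms ending at position 21 the early start had 0.933 times the RPM of the usual start in ovary, 1.02 times in testis, 1.57 times (female) and 1.52 times (male) in brain, and 0.361 times (female) and 0.880 times (male) in liver. Among forms ending at position 22 the same ratio was 0.124 in ovary, 0.104 in testis, 0.128 in both brain libraries, 0.0648 in female liver and 0.101 in male liver. let-7a, which differs from let-7b at 2 bases, had early starts listed in brain alone, at a ratio of 0.0454 in female brain and 0.0458 in male brain for forms ending at position 21. The base in front was G in let-7a and let-7b, C in let-7e and A in let-7g. Over all let-7-5p, early starts by 1 base held 2.07% in ovary, 1.97% in testis, 7.08% (female) and 6.61% (male) in brain, and 2.04% (female) and 3.09% (male) in liver.

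**Figure D5:**
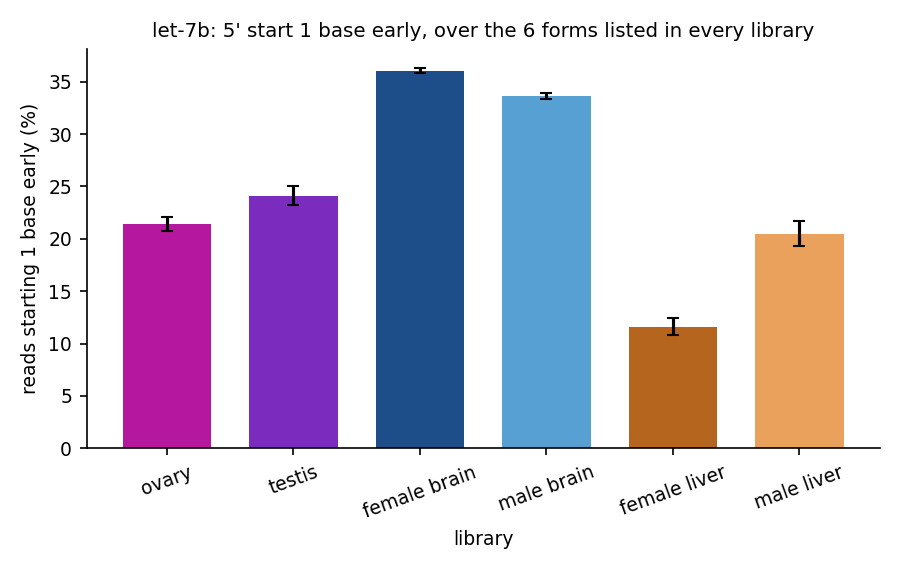
Percentage of let-7b reads that began 1 base early, over the 6 forms listed in all 6 libraries, with bars for 95% Wilson intervals that cover counting error only. The brain libraries stand at 36.0% and 33.6%, above the gonads (21.4% and 24.1%) and the livers (11.6% and 20.4%).

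The share of reads with an added T at the 3' end was higher in let-7i and let-7b than in let-7a in each library. Forms with this T made up 12.9% (female) and 11.4% (male) of let-7i in brain, and 14.7% (female) and 19.7% (male) in liver. In ovary and testis the T form of let-7i was listed at 11.2 RPM and 10.2 RPM, close to the minimum, or 7.41% and 18.9%. In let-7b the share was 8.78% in ovary, 9.99% in testis, 8.55% (female) and 8.30% (male) in brain, and 12.3% (female) and 9.58% (male) in liver. let-7a stayed between 0.953% and 2.35% in the 6 libraries. let-7d also stood above let-7a, with 7.02% in ovary, 7.34% in testis, and 5.21% (female) and 4.57% (male) in brain. Its T form was unlisted in liver. In brain let-7c and let-7h lay above let-7a too, whereas let-7e, let-7g and let-7j lay below it. Whether the T is encoded in the genome was not tested.

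A final A in place of T (T22A) was listed in brain and separated the paralogues into 2 sets. Of this and the unchanged 22-nt form together it made up 3.75% for let-7b in female brain and 3.50% in male brain, 3.95% and 3.68% for let-7d, and 3.27% and 2.99% for let-7c, in the same order of sex. For let-7a it was 0.576% in female brain and 0.499% in male brain, for let-7i 0.430% and 0.348%, and for let-7g 0.352% in female brain. The first 3 paralogues share G at position 19, and these other 3 have A or T there. At the level of let-7a in ovary and testis a share above 0.339% and 0.535% would have been listed.

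let-7j carried a frequent internal change, G15T. This form of the 22-nt sequence had 62.3 RPM in female brain, 88.7 RPM in male brain, 9.47 RPM in female liver and 15.5 RPM in male liver. Of the changed and unchanged forms together these were 5.97% (female) and 9.70% (male) in brain, and 5.64% (female) and 12.4% (male) in liver. By the same measure the change made up between 0.122% and 1.02% of let-7a, let-7d, let-7g and let-7i where it was listed, all in brain, and in every paralogue listed in both sexes of an organ the male share was higher. In ovary and testis it was unlisted for let-7j, where a share up to 6.43% and 14.4% would have escaped listing. Whether it stems from a separate gene, an edit or the sequencing was not tested. An A10G form of let-7a made up 0.744% in testis, 0.827% in female brain and 0.819% in male brain of the 2 forms together, and was unlisted in ovary, where 0.339% would have been listed.

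The 3p arm was listed in brain alone. let-7i-3p of 22 nt had 132 RPM in female brain and 152 RPM in male brain. A 21-nt form ending 1 base earlier had 12.1 RPM in female brain and 15.1 RPM in male brain, and a C21T form had 10.6 RPM in female brain and 9.29 RPM in male brain. A form nearest to let-7a-3p, with 2 mismatches, had 11.6 RPM in female brain and 9.78 RPM in male brain, and a let-7a-2-3p form had 6.32 RPM in male brain.

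For let-7i the 3p arm held 3.05% of both arms in female brain and 3.14% in male brain. The 95% Wilson intervals overlapped, at 2.95% to 3.15% and 3.04% to 3.24%. let-7-3p as a whole summed to 166 RPM in female brain and 193 RPM in male brain, and held 0.442% in female brain and 0.628% in male brain of the reads of both arms. Outside brain the let-7i share could have been up to 6.19% in ovary, 15.7% in testis, 3.12% in female liver and 6.88% in male liver with a single 3p sequence at the minimum, so a lower use of the 3p arm of let-7i there was not detectable. For the family as a whole the same limit was 0.145% in ovary, 0.228% in testis, 0.324% in female liver and 0.381% in male liver, all below the brain shares. This limit allows a single 3p sequence, whereas female brain listed 4 and male brain 5. Several sequences below the minimum could together exceed it. Most of the 3p RPM in brain was let-7i-3p, and let-7i held less of let-7-5p in the gonads. A lower use of the 3p arm outside brain was therefore not shown.

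Females had more let-7-5p RPM than males in each organ pair, but the size and direction depended on scaling. The ratio was 1.23 for female over male brain, 1.18 for female over male liver and 1.57 for ovary over testis. With median-of-ratios scaling it was 0.919 in brain, 1.41 in liver and 1.15 in the gonads. Each ratio compares 2 pooled libraries, so its counting interval says nothing about the spread between fish.

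Single paralogues departed from the family ratio. let-7i had a ratio of 0.903 in brain (95% interval 0.896 to 0.911), 2.31 in liver (2.17 to 2.45) and 2.82 in the gonads (2.65 to 3.003). let-7e had 1.46 in brain (1.44 to 1.49), 0.690 in liver (0.627 to 0.758) and 0.539 in the gonads (0.522 to 0.557). let-7g stayed above 1 on the RPM scale, with 1.39 in brain, 1.36 in liver and 2.21 in the gonads. let-7j had 1.14 in brain, 1.46 in liver and 2.65 in the gonads.

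The microRNAs that often share a primary transcript with let-7 in vertebrates, miR-99 or miR-100 and miR-125, were counted by their seed. The miR-99 and miR-100 seed summed to 133 RPM in ovary, 84.4 RPM in testis, 1997 RPM in female brain, 1643 RPM in male brain, 22.4 RPM in female liver and 86.9 RPM in male liver. The miR-125 seed summed to 117 RPM in ovary, 76.6 RPM in testis, 5143 RPM in female brain, 4352 RPM in male brain, 6.88 RPM in female liver and 29.5 RPM in male liver. Both were highest in brain, as let-7 was in RPM, but let-7-5p stood 18.8-fold and 18.6-fold above the miR-99 and miR-100 seed in female and male brain, 51.7-fold in ovary, 52.0-fold in testis, 82.9-fold in female liver and 18.1-fold in male liver. For this seed the livers thus spanned the other organs. Above the miR-125 seed let-7-5p stood 7.29-fold in female brain, 7.01-fold in male brain, 58.5-fold in ovary and 57.2-fold in testis. In female and male liver it stood 270-fold and 53.2-fold above that seed, so that both brain libraries were lowest. By limma 10 of 12 tested sequences of the miR-99 and miR-100 seed and 8 of 13 of the miR-125 seed were higher in brain than in liver, beside 40.6% of all sequences, and 0 were lower. Ovary was below brain for 8 and 7 of them and testis for 8 and 7, beside 37.4% and 38.4% of all sequences, with 0 higher. How many of them passed the minimum through brain alone was not counted. Any that did could differ from brain in 1 direction only, so these counts are partly set by the filter. In female liver every miR-125 sequence was raised to the minimum of 10.03 RPM, since they summed to 6.88 RPM. Against liver, 2 of the miR-125 sequences were higher in ovary and 1 in testis, beside 10.4% and 9% of all sequences.

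Among 109 sequences outside let-7 that were listed in every library, the 5 whose level kept the steadiest ratio to let-7-5p over the 6 libraries all carried the seed AGCAGCA, known from the miR-15 and miR-16 family. The closest had an SD of 0.17 log2 units in that ratio, the fifth 0.51, and the median of the 109 was 1.61. It had 297 RPM in ovary, 203 RPM in testis, 1818 RPM in female brain, 1683 RPM in male brain, 88.4 RPM in female liver and 94.3 RPM in male liver. The 5 sequences overlap in sequence and are not independent of each other.
closest pattern: tAGCAGCAcggaatggtttgtg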

How the data were processed

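Small RNA below 30 nt had been gel purified from total RNA of pooled tissue and ligated to adapters, per the labels' protocols, and the tool CASAVA 1.7.0 is listed per the submitters' processing notes. No aligner, trimming or annotation was given in the sources used here. The authors deposited 1 list per library of exact sequences with length and an expression value. The unit, RPM as scaled by the authors, was assumed. The deposited values are whole multiples of 1 step, taken as 1 read, within a tolerance of 0.02 reads. Under that assumption these steps gave the depths of 18.7 to 25.5 M reads (M, mega). The deposited lists also give each length in nt.

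Here sequences were assigned to let-7 forms by substitutions from anchors found in the data (10 forms of 5p and 9 of 3p in the key, written from knowledge of zebrafish and human let-7). RPM were summed, with unlisted values as 0. Shares have 95% Wilson intervals and ratios 95% binomial intervals. They cover counting error only, since PCR reads carried no molecular identifiers. Sequences were tested with limma 3.58.1 in R 4.3.3 (pseudocount 1). The fit was checked on simulated data in which no value was held at the minimum, so the check does not cover sequences without spread. p-values measure the spread between single pooled libraries of the sexes, not between fish. The count test planned as an alternative was not run. Members, lists and tests were chosen with earlier results of these data known. Named sequences were the highest of each paralogue with at least 1% of let-7-5p in a library, each 3p sequence, and the 3 largest differences in each direction per comparison; forms with early starts, added bases or substitutions were chosen after their values were seen. Other tools were Python 3.11.15, numpy 2.4.6, pandas 2.3.3 and scipy 1.17.1.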

Additional observations from a re-analysis of the deposited data

Results flagged for a closer look

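Female and male libraries moved in opposite directions in brain and liver for 3 paralogues, with counting intervals on either side of 1. The difference between the organs was not tested, since each ratio rests on 1 pooled library per sex. let-7i had a female over male ratio of 0.903 in brain and 2.31 in liver. let-7a had 1.33 in brain and 0.867 in liver, which became 0.997 and 1.03 after median-of-ratios scaling. let-7e had 1.46 in brain and 0.690 in liver, and 1.10 and 0.822 after that scaling.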

How the results depend on the processing

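Scaled values had a higher minimum (25.1 scaled to the listed total and 17.3 with median-of-ratios), which left 37 and 49 let-7 sequences to test instead of 102, so scale and tested set changed together. In the order brain above liver (main 55), ovary below brain (51), testis below brain (52), ovary above liver (5), testis above liver (4) and ovary above testis (1), the let-7 counts were 11, 4, 5, 8, 10 and 2 when scaled to the listed total and 27, 24, 25, 11, 14 and 1 with median-of-ratios scaling. As shares on the listed total these were 29.7%, 10.8%, 13.5%, 21.6%, 27.0% and 5.41% of let-7. Over all sequences they were 17.3%, 14.8%, 14.3%, 20.7%, 28.3% and 14.3%. With median-of-ratios they were 55.1%, 49.0%, 51.0%, 22.4%, 28.6% and 2.04% of let-7. Over all sequences they were 27.3%, 24.7%, 26.0%, 15.3%, 20.2% and 10.4%. In the other direction, scaled to the listed total gave 5, 6 and 2 for ovary above brain, testis above brain and ovary below testis, and median-of-ratios 2, 2 and 5. With sex as a term the first 5 were 33, 25, 19, 1 and 0, beside 344, 291, 275, 42 and 0 of all 1311 sequences. Each file's own minimum gave 84 of 121 let-7 sequences for brain above liver, beside 780 of all 1571. For ovary above testis it gave 0 let-7 sequences and 0 of all 1571. Requiring 2 libraries above the minimum gave 0 of 79 for ovary above testis, beside 18 of all 945. A pseudocount of 10 gave 2 of 102 for testis above liver, beside 111 of all 1311. Matching without a 5' shift gave 3 for ovary above liver and 0 for ovary above testis, beside 136 and 112 of all 1311. Leaving out 1 library at a time gave 11 to 85, 12 to 84, 11 to 84, 0 to 11, 0 to 8 and 0 to 8. Over all sequences, brain minus liver had 532 higher and 30 lower in RPM, 110 and 60 when scaled to the listed total, and 212 and 52 with median-of-ratios scaling; the median over the sequences tested was 0.64 in RPM and 0 in both scaled sets.

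Among the 22-nt forms, signs changed as follows when scaled to the listed total. Brain minus liver became -0.18 for let-7g, -0.59 for let-7h and -0.41 for let-7j. Ovary minus brain became 1.51 for let-7a, 0.24 for let-7b, 1.16 for let-7e, 2.41 for let-7g, 0.89 for let-7h and 0.32 for let-7j, and testis minus brain 1.35 for let-7a, 2.62 for let-7e, 1.72 for let-7g and 0.52 for let-7h. Ovary minus testis became -0.29 for let-7c and -0.36 for let-7d, and ovary minus liver -0.087 for let-7j. With median-of-ratios scaling, ovary minus brain became 0.27 for let-7a and 1.17 for let-7g, testis minus brain 0.052 for let-7a, 1.32 for let-7e and 0.42 for let-7g, ovary minus testis -0.23 for let-7c and -0.30 for let-7d, and ovary minus liver -0.30 for let-7j. Ovary minus liver of let-7j was -0.0499 with sex as a term and ranged over -0.12 to 0.42 with 1 library left out, and testis minus liver of let-7b ranged over -0.20 to 0.45 with 1 library left out. The cause was not tested.

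Under matching without a 5' shift and under an equal minimum share in every library, let-7a was 52.3% and 53.1% in ovary and 54.2% and 54.1% in testis, and the 22-nt share was 72.3% and 72.2% in brain, 86.7% and 86.4% in ovary, and 83.1% and 82.1% in testis. The female over male ratio of let-7-5p was 1.22 in brain and 1.203 in liver under that matching, 1.11 in brain when scaled to the listed total, 0.919 in brain and 1.41 in liver with median-of-ratios scaling, and 1.14 in liver above the highest minimum. Ovary over testis was 1.55 under the equal minimum share, 1.11 when scaled to the listed total and 1.15 with median-of-ratios scaling. The planned count test on recovered reads was not run, because the check of the unit did not accept the values as recovered reads. Depths and counting intervals rest on reads implied by the spacing of the values and share that doubt. Unlisted sequences, below 6.002 to 10.03 RPM, limit every statement on minor forms outside brain.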
